A study of Mus musculus with 80 samples.

Results

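The genes described here are 9 growth factor receptor tyrosine kinases of the neonatal mouse male germ line: Fgfr1, Fgfr2, Fgfr3, Epha2, Erbb2, Erbb3, Igf1r, Insr and Met. They were chosen by name, out of 27128 gene rows, and all 9 had a row. The study measured RNA in germ cells of male mice of the strain B6;CBA-Tg(Pou5f1-EGFP)2Mnn/J at postnatal day 5.5. These mice carry a green fluorescent protein transgene driven by regulatory sequence of Pou5f1 (Oct4), and every group used here was Oct4-GFP positive. Bulk RNA came from CD87 negative cells (2 libraries) and CD87 positive cells (2 libraries), CD87 being the urokinase receptor encoded by Plaur, and was amplified by Smart-seq2. In addition, 71 single KIT negative cells were captured with a Fluidigm C1 system. The labels do not say whether libraries or cells came from separate animals.

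Receptor tyrosine kinases are membrane proteins that phosphorylate tyrosines when activated, typically by a growth factor or a cell-bound ligand. Adaptor proteins then dock on the phosphorylated tails and pass the signal to the RAS-ERK, PI3K-AKT and phospholipase C pathways. In the testis, FGF2 supports mouse spermatogonial stem cells in culture together with GDNF, and insulin-like growth factors are made by testicular somatic cells.

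Values in the sorted libraries are TPM, transcripts per 1000000, which are scaled for gene length, so that levels of different genes can be compared. Sequencing depth cannot be read from TPM and is unknown for these libraries. The deposited columns summed to between 580440 and 635203, short of 1000000, so a TPM limit is stricter here than on columns with the full sum. The libraries listed between 12063 and 16267 genes above 0, the fewest in CD87 positive library 2, which stands apart. In the order CD87 negative library 1 and 2, then CD87 positive library 1 and 2, which is kept throughout, Plaur had 0.46, 0.97, 3.53 and 8.92 TPM. The single cells had between 182163 and 6802790 expected counts (median 1585930), given here as CPM, counts per 1000000 of the cell's total. CPM is not scaled for length and is compared within a gene unless it is divided by length. A gene was taken as detected in a cell that had 1 or more expected counts of it. The deposited clusters I, II, III and IV held 9, 32, 24 and 6 cells, with median totals of 1444840, 1601410, 1681170 and 1121540 counts. The germ cell markers Ddx4, Dazl, Sall4 and Zbtb16 were each detected in 71 of 71 cells, Dnd1 in 67 and Nanos3 in 61. Of somatic markers, the Sertoli gene Sox9 was in 65 cells and the Leydig gene Star in 61, at medians of 4.60 and 5.27 CPM. By contrast, 4 of 5 Leydig markers and 2 of 7 Sertoli markers were in 0 cells. Markers of macrophages and leukocytes, 10 genes, summed to 10.9 and 7.23 TPM in the CD87 negative pair, against 165 and 151 TPM in the CD87 positive pair. Tyrobp, C1qa and C1qb had a listed 0 in each CD87 negative library, and 6 of the 10 markers were at 0 in both. Part of the list was also near absent from CD87 positive library 2, where C1qc, Adgre1 and Ptprc had a listed 0 and Csf1r 0.19 TPM. The sum in that library came almost wholly from the other markers, from high to low Fcer1g, Lyz2, Tyrobp, Cd68, C1qb and C1qa. In the single cells, 4 of the 10 were detected in 0 of 71 cells, C1qa and C1qb among them, which allows a share of up to 4.23%. Lyz2 and Tyrobp were in 1 cell each, Ptprc in 6, Csf1r in 16, Cd68 in 17 and Fcer1g in 24.

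The first question was which of these receptors are well expressed, taken as at least 10 TPM in all 4 libraries and detection in at least 80% of the cells. Igf1r and Fgfr1 met both conditions, against 14.1% of all genes in both tables. With detection set at 5 expected counts, Fgfr1 no longer met them, since 77.5% of the cells then had it. Fgfr3 met the condition on cells alone, and the other 6 met neither. Of all genes, 16.9% reached the TPM level and 25% the share of cells. Erbb2 lay nearest to the TPM limit on the outside, at 8.41 TPM in its lowest library, and Fgfr1 nearest on the inside, at 15.07 TPM. With each library rescaled to a sum of 1000000, a setting chosen after the data were seen, the lowest Erbb2 value was 13.2 TPM and Erbb2 passed the TPM limit, while the receptors that met both conditions numbered 2 as before. On the share of cells, Fgfr1 was nearest on the inside with 90.1% and Erbb2 nearest on the outside with 49.3%. Among 58 receptor tyrosine kinase genes, 7 reached 10 TPM in every library, 11 were in at least 80% of the cells and 5 met both conditions. By mean TPM, Igf1r ranked 5, Erbb2 6 and Fgfr1 7 among these 58. The 4 genes above Igf1r were Ptk7, a WNT pathway pseudokinase (56.3 TPM), Kit, the stem cell factor receptor (47.2 TPM), Ret, the signalling chain of the GDNF receptor (46.1 TPM), and Ryk, a WNT-binding pseudokinase (29.9 TPM). Means here are over the 4 libraries. Of these 58 genes, 29 were tested between CD87 groups and 0 passed (limma adjusted p under 0.05), with 4 at an unadjusted p under 0.05, against 4.95% of all genes. Besides Epha2 and Erbb2 the smallest p values were those of Ret (log2 difference 1.32) and Kit (-1.09).

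**Figure D1:**
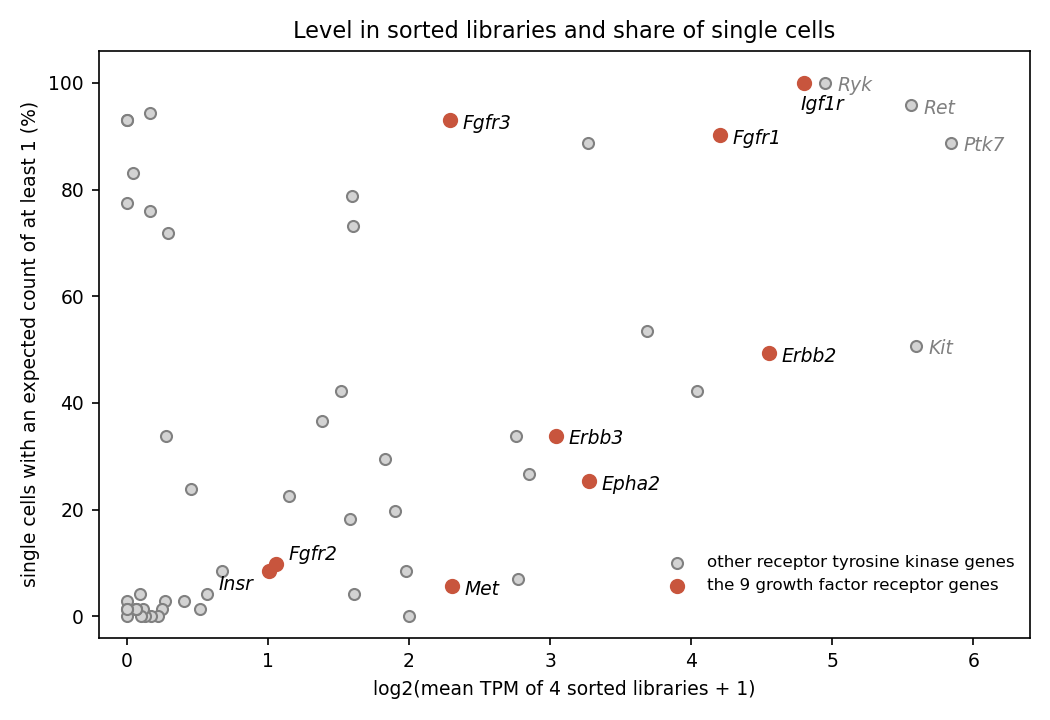
Each point is 1 of 58 receptor tyrosine kinase genes, placed by its log2(mean TPM of the 4 sorted libraries + 1) on the x axis and the percent of 71 single cells in which it was detected (expected count of 1 or more) on the y axis, with the 9 receptors in red. Igf1r (100% of cells) and Fgfr1 (90.1%) sit at the upper right, Fgfr3 (93.0%) at the upper left of them, and Insr, Fgfr2 and Met near the bottom.

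The insulin and insulin-like growth factor receptors stood at opposite ends of the group. Igf1r, the receptor of IGF1 and IGF2, was at 31.31 and 21.03 TPM in CD87 negative cells, against 31.90 and 23.30 TPM in CD87 positive cells, so the groups overlapped. Every one of the 71 single cells had it (exact Clopper-Pearson 95% interval 94.9% to 100%), always with at least 20 expected counts. Its median was 329 CPM (lowest cell 18.8, quartiles 188 and 421, highest cell 1723). All cells therefore held Igf1r reads, over a wide range of levels. Insr, the insulin receptor, was at 1.89 and 0.46 TPM against 1.35 and 0.34 TPM, again with overlapping groups. Reads for it were found in 6 cells (8.45%, interval 3.17% to 17.5%), and its highest cell held 38.95 CPM. Insr was the lowest of the 9 by mean TPM, and Igf1r the highest.

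The 3 FGF receptors, which bind fibroblast growth factors with heparan sulfate as a cofactor, are taken in the order of their mean TPM. Fgfr1 was at 15.07 and 16.95 TPM in CD87 negative cells, against 15.45 and 22.34 TPM in CD87 positive cells. In the single cells, 64 of 71 had it (90.1%, interval 80.7% to 95.9%), with a median of 36.6 CPM over all cells (quartiles 7.11 and 89.4, highest 340). Fgfr1 was thus present in most cells, and 50 of the 71 held at least 20 expected counts. Fgfr3 was at 7.19 and 4.05 TPM against 4.01 and 0.34 TPM, the last of these in the library with the fewest genes. For Fgfr3, 66 cells had it (93.0%, interval 84.3% to 97.7%), with a median of 21.8 CPM (quartiles 7.196 and 35.2, highest 567). Fgfr3 and Fgfr1 were found in like numbers of cells, and per kilobase of transcript their medians were 5.13 and 7.26 CPM. Fgfr2 was at 1.24 and 1.94 TPM against 1.16 TPM and a listed 0, which in a TPM table can be a failed estimate. Only 7 cells had it (9.86%, interval 4.06% to 19.3%), and 1 cell, at 302 CPM, held 52.01% of all its CPM. Fgfr2 reads were thus few and unevenly spread. At least 1 of the 3 FGF receptor genes was detected in 70 of the 71 cells, and Fgfr1 and Fgfr3 together in 60.

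The ERBB receptors were in part of the cells. ERBB2 binds no ligand of its own and signals as a partner of the other ERBB chains, and ERBB3 binds neuregulins but has a weak kinase and signals through such a partner. Erbb2 was at 33.56 and 27.18 TPM in CD87 negative cells, against 20.81 and 8.41 TPM in CD87 positive cells. Reads were found in 35 of 71 cells (49.3%, interval 37.2% to 61.4%), and those cells had a median of 53.1 CPM. Most cells had either almost no Erbb2 counts or many: 32 cells had under 0.5 expected counts, 7 had 0.5 to 2, 2 had 2 to 20 and 30 had at least 20. Erbb3 was at 4.98 and 2.68 TPM against 7.40 and 13.94 TPM, and was detected in 24 cells (33.8%, interval 23% to 46.01%). Both genes were detected in 12 cells, Erbb2 alone in 23, Erbb3 alone in 12 and neither in 24. The product of their shares would give 11.8 cells with both, so the pair was found together about as often as that product.

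EPHA2 binds ephrin-A ligands held on neighbouring cells, and MET is the receptor of hepatocyte growth factor. Epha2 was at 4.82 and 3.73 TPM in CD87 negative cells, against 10.78 and 15.47 TPM in CD87 positive cells. Among single cells, 18 had it (25.4%, interval 15.8% to 37.1%) and reached 197 CPM. Epha2 and Fgfr2 were detected together in 0 cells, where the product of their shares would give 1.77. Met was at 6.74 and 3.21 TPM against 1.98 and 3.81 TPM, and was detected in 4 cells (5.63%, interval 1.56% to 13.8%). A single cell, at 356 CPM, held 91.9% of all Met CPM. Among all genes of the single-cell table, 42.5% were in under 10% of the cells, as Met, Insr and Fgfr2 were.

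**Figure D2:**
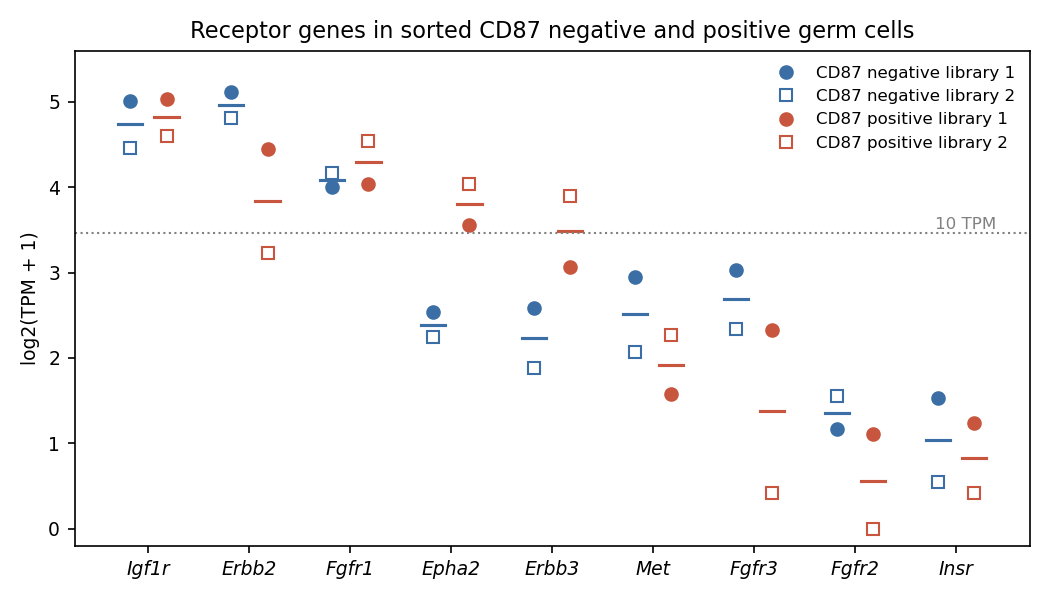
TPM of each receptor in the 4 sorted libraries on a log2(TPM + 1) axis, with 1 point for each CD87 negative and CD87 positive library and a bar for each group mean. Igf1r and Fgfr1 stay within a narrow band, both CD87 positive libraries lie above both CD87 negative ones for Epha2 and Erbb3, and below them for Erbb2, Fgfr3 and Fgfr2.

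**Figure D3:**
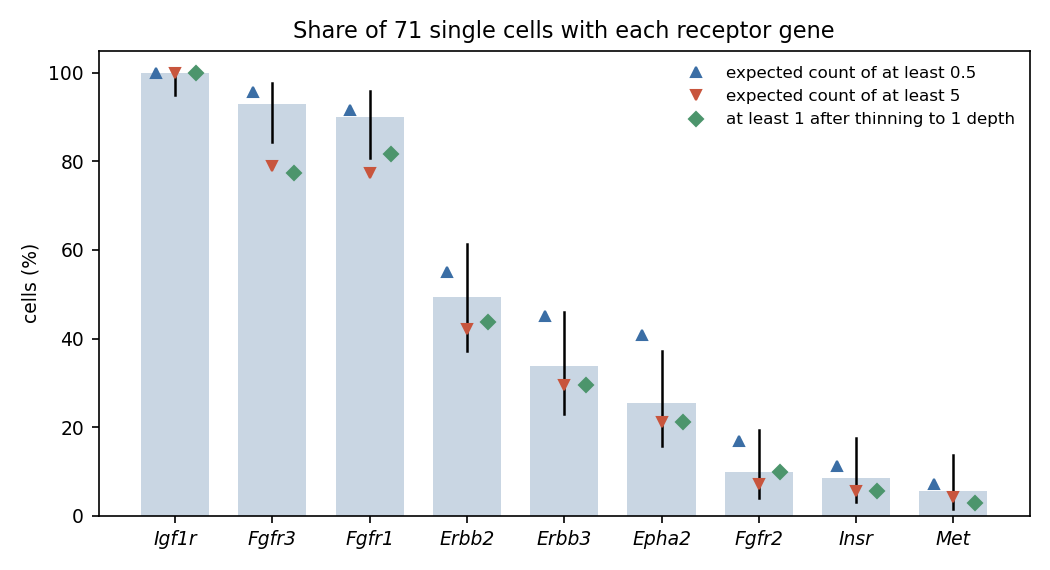
Bars give the percent of 71 single cells in which each receptor was detected (expected count of 1 or more), starting at 0, with exact 95% binomial intervals; triangles give the percent at a count of at least 0.5 and of at least 5, and diamonds the percent after each cell was thinned to 182150 counts. The bars run from 100% for Igf1r to 5.63% for Met, and Epha2 moved most with the limit, from 25.4% to 40.8% at a count of at least 0.5.

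The order of the receptors was read on the length-scaled values. By mean TPM it ran from Igf1r (26.9) through Erbb2 (22.5), Fgfr1 (17.5), Epha2 (8.70), Erbb3 (7.25), Met (3.94), Fgfr3 (3.90) and Fgfr2 (1.09) to Insr (1.01). The ranges over the 4 libraries of all 8 neighbouring pairs overlapped, so no neighbours differed beyond their spread. Fgfr1 was nonetheless above Epha2 in 4 of 4 libraries, and Fgfr3 above Fgfr2 in 4 of 4. Igf1r was above Erbb2 in 2 of 4. In the single cells, pooled CPM per kilobase of the longest coding transcript gave Igf1r 28.9, Fgfr1 14.02, Erbb2 10.5, Fgfr3 6.95, Epha2 4.60, Erbb3 3.31, Fgfr2 2.10, Met 0.813 and Insr 0.118. Igf1r was first and Insr last on both scales, while Met ranked lower in the single cells than in the sorted libraries. Fgfr3 ranked higher in the single cells, above Epha2, Erbb3 and Met, each of which was above Fgfr3 by mean TPM. The single cells were KIT negative and the libraries were sorted by CD87, so these orders come from differently chosen cells. These lengths come from GENCODE M21, which may differ from the annotation behind the counts.

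Promoter windows of RefSeq (build GRCm38.p6, 250 bases before to 50 after the gene start) were available for Fgfr2, Fgfr3, Epha2, Erbb2, Igf1r and Met. The windows of the most widely detected receptor and of both rarely detected ones that had a window are printed 5′ to 3′ on the gene's strand, to set their CpG content beside the expression. Capitals mark CpG dinucleotides. The Igf1r window is chr7:67952007-67952306 on the plus strand, the Fgfr2 window chr7:130266759-130267058 on the minus strand and the Met window chr6:17463707-17464006 on the plus strand.
Igf1r: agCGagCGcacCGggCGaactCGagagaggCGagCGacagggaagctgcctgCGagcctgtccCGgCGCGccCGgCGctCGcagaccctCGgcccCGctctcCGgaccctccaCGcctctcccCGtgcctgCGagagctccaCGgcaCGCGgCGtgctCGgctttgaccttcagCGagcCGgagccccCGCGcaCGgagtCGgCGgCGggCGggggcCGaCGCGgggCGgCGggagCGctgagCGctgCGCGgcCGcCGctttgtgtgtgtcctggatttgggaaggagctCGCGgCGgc
Fgfr2: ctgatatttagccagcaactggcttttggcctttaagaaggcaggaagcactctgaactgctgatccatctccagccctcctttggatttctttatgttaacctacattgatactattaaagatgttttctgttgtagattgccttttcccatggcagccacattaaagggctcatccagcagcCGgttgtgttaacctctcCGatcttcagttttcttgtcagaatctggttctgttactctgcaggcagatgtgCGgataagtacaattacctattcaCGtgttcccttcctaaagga
Met: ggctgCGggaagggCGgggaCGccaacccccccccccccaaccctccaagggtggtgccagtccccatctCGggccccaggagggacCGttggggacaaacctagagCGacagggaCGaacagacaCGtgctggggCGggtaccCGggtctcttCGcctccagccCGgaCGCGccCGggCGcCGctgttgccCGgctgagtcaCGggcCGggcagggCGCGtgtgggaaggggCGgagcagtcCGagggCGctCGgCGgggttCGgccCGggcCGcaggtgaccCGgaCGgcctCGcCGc
The Igf1r window held 48 CpG, more than 98.8% of 32851 RefSeq promoter windows, whose median was 7. Fgfr2 held 4 CpG and Met 34, so the 2 receptors in few cells lay on either side of that median. The Erbb2 window held 21 CpG, the Epha2 window 10, and the windows at 2 Fgfr3 starts 26 and 30. The letters GGGCGG, a core that SP-family factors can bind, were present on either strand in the windows of Igf1r, Met, Epha2 and both Fgfr3 starts, and in 35.7% of all windows.

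The second question was whether these receptors differ with CD87 on the germ cells. No receptor passed the test over all 12715 genes (limma, Benjamini-Hochberg adjusted p under 0.05), where 3 genes, 0.0236%, passed. With 2 libraries a group, an exact permutation test of 1 gene cannot give a p under 0.333. Both CD87 positive libraries were above both negative ones for Epha2 and Erbb3 (2 of 9, against 20.4% of all genes) and below them for Erbb2, Fgfr3 and Fgfr2 (3 of 9, against 14.5%). At an unadjusted limma p under 0.05 there were 2 of the 9, against 4.95% of all genes. They were Epha2, in the higher direction (3.37% of all genes), and Erbb2, in the lower (1.58%). In bulk RNA, fewer cells of a type and less RNA per cell cannot be told apart.

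Epha2 had a mean of 4.28 ± 0.771 TPM in CD87 negative and 13.1 ± 3.32 TPM in CD87 positive cells (SD, n = 2 libraries each). The difference on log2(TPM + 1), a scale that understates changes of low genes, was 1.41 ± 0.48 (SE, limma p = 0.0170, adjusted p = 0.863). Erbb3 means were 3.83 ± 1.63 and 10.7 ± 4.62 TPM, a log2 difference of 1.26 ± 0.55 (limma adjusted p = 0.863). For both receptors every CD87 positive library was the higher one. The macrophage marker sum given above was higher in the same libraries. So were the sums of 5 peritubular myoid markers (5.84 and 7.97 against 9.89 and 32.6 TPM) and of 5 endothelial markers (1.77 and 2.31 against 3.91 and 7.15 TPM), both highest in CD87 positive library 2, as Epha2 and Erbb3 were. In that library the endothelial sum was Pecam1 alone (7.15 TPM), with Cdh5, Tie1, Tek and Emcn at a listed 0. The myoid sum there was Myl9 (21.8 TPM), Cnn1 (7.50 TPM) and Tagln (3.27 TPM), with Acta2 and Myh11 at a listed 0. The part of these cell types in the receptors' values was not tested.

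Erbb2 means were 30.4 ± 4.51 TPM in CD87 negative and 14.6 ± 8.77 TPM in CD87 positive cells, a log2 difference of -1.12 ± 0.45 (limma p = 0.0357, adjusted p = 0.863). Fgfr3 means were 5.62 ± 2.22 and 2.18 ± 2.60 TPM, a log2 difference of -1.31 ± 0.76 (limma adjusted p = 0.863). Both had their lowest value in CD87 positive library 2. Without that library the log2 differences were -0.52 for Erbb2 and -0.36 for Fgfr3. The 7 measured Sertoli cell markers summed to 73.7 and 138 TPM in CD87 negative cells, against 68.6 and 9.97 TPM in CD87 positive cells, also lowest there. The largest values were those of Clu (38.9 and 84.1 against 34.2 and 1.37 TPM) and Inha (18.9 and 37.7 against 21.6 and 3.71 TPM). Sox9 was near level, at 1.62 and 1.38 against 1.99 and 1.22 TPM. Of the 7 markers, 3 were lower in both CD87 positive libraries, against 14.5% of all genes. The part of Sertoli cells in the receptors' values was not tested.

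Igf1r and Fgfr1 had the smallest standard errors of the 9. The Igf1r log2 difference was 0.08 (95% interval -0.73 to 0.89) and that of Fgfr1 was 0.21 (-0.64 to 1.06), so changes within these bounds could not be told apart from none. Met (-0.59), Fgfr2 (-0.80) and Insr (-0.21) had differences with standard errors of 0.62 to 0.77. The direction of Igf1r turned under other scalings (-0.02 without the row LOC672857, -0.05 after quantile normalization), and that of Insr under quantile normalization (0.12).

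One library decided the calls. With CD87 positive library 1 left out, 4 of the 8 receptors tested passed (limma adjusted p), against 25.2% of all genes. Epha2 (log2 difference 1.65) and Erbb3 (1.67) were higher, as were 9.86% of all genes, and Erbb2 (-1.73) and Fgfr3 (-2.26) lower, as were 15.3%. The lone CD87 positive library in that fit was library 2, and was assumed to vary like the CD87 negative pair. With any other single library left out, 0 receptors passed.

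**Figure D4:**
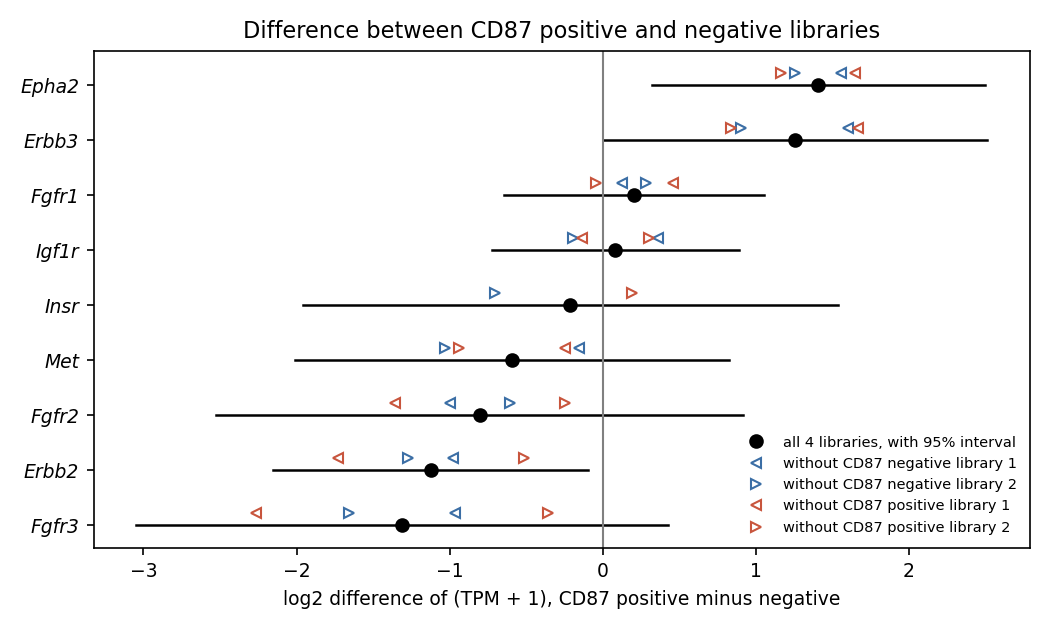
Log2 difference of each receptor, CD87 positive minus CD87 negative, on log2(TPM + 1), with its limma 95% interval and the values when each library is left out. Only the intervals of Epha2 (0.32 to 2.50) and Erbb2 (-2.15 to -0.09) lie off 0, before adjustment over all genes.

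The third question was in which single cells the receptors were found. The authors clustered these cells on their genes, so values by cluster are descriptions with no test, and the cells are 1 sample. Igf1r was detected in every cell of clusters I, II, III and IV, with medians of 361, 362, 304 and 296 CPM. Without the cluster IV cell at 1723 CPM, which had the fewest counts of all, the cluster IV median was 168 CPM for Igf1r and 64.5 CPM for Fgfr1. With all cells, Fgfr1 medians were 30.5, 36.6, 38.6 and 36.3 CPM, in 7 of 9, 30 of 32, 23 of 24 and 4 of 6 cells. Fgfr3 was in 7, 31, 22 and 6 cells, at medians of 14.2, 21.3, 21.8 and 46.5 CPM. The ranges of these 3 receptors overlapped among all clusters.

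Erbb3 differed most among clusters. In clusters I to IV, 4 of 9, then 15 of 32, 5 of 24 and 0 of 6 cells had it, and 0 of 6 allows a share of up to 50.0% by the 3-count limit and 45.9% by the exact interval. Its mean log2(CPM + 1) was higher by 1.28 in cluster II than in the other cells, lower in cluster III (-1.07) and lower in cluster IV (-1.60). Of 2845 genes in 18 to 35 of all cells, 4.92% were higher by at least 1 in cluster II, 1.9% lower in cluster III and 16.8% lower in cluster IV. Among 10099 genes in at least 36 cells, these shares were 8.67%, 3.1% and 24%. Epha2 was in 3, 10, 5 and 0 cells, and Erbb2 in 3, 17, 12 and 3. Both were lower in cluster IV, by a mean log2 difference of -1.45 for Epha2 and -1.53 for Erbb2. Cluster IV also had the fewest genes per cell, a median of 8806 against 9730, 10894 and 10255 in clusters I to III, and 22.4% of the same 2845 genes were in 0 of its cells. The part of that lower number of genes per cell in these values was not tested. With each cell thinned to 182150 counts, the same 6 pairs of a receptor and a cluster differed by at least 1 as without thinning, and they were these 5 and Fgfr1, lower in cluster I (-1.07), where 18% of those 10099 genes were lower.

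Rarely detected receptors were spread over clusters. Fgfr2 was in 0, 5, 1 and 1 cells in clusters I to IV, Insr in 0, 2, 4 and 0, and Met in 1, 1, 2 and 0. A count of 0 of 9 cells allows a share of up to 33.3%. At 4 to 7 cells in all, a difference between clusters was not detectable for these genes.

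**Figure D5:**
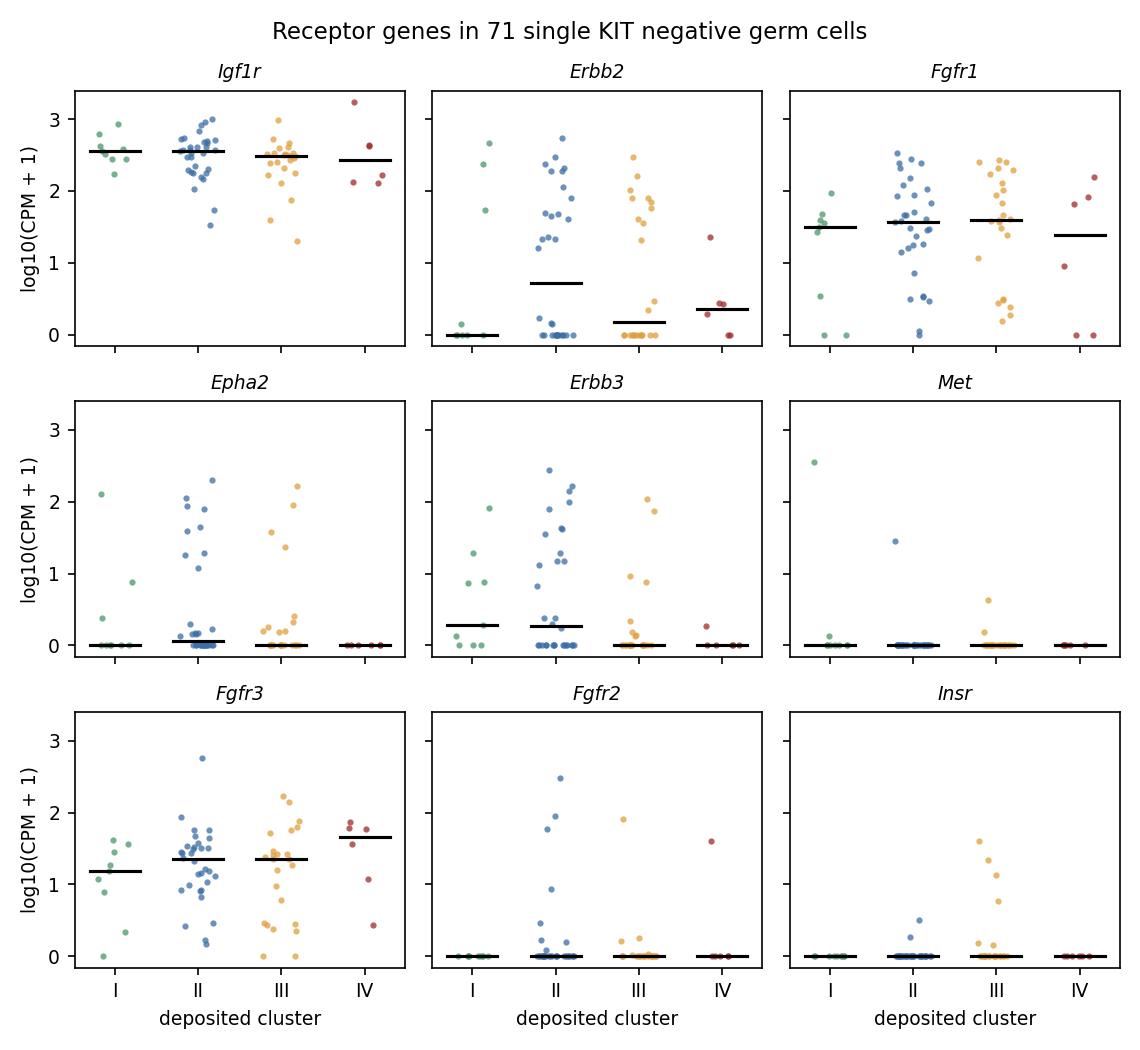
Level of each receptor, as log10(CPM + 1), in each of the 71 single cells by deposited cluster I to IV, with 1 point for each cell and a bar for each cluster median. Igf1r medians lie between 296 and 362 CPM in the 4 clusters, and Erbb2 and Erbb3 run from cells at 0 up to 540 and 279 CPM.

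Most cells held several of the receptors. Of 71 cells, 3 had 2 of the 9 receptors, 16 had 3, 28 had 4, 15 had 5 and 9 had 6. The median was 4 in clusters I, II and III and 3.5 in cluster IV. Igf1r, Fgfr1 and Fgfr3 were all detected in 60 cells, and 57 cells had none of Insr, Met and Fgfr2. Over the 36 pairs of receptors, Spearman's rho of CPM across the 71 cells, which share a depth scale, ran from -0.202 to 0.213. Met, Insr, Fgfr2, Epha2 and Erbb3 were detected in 4, 6, 7, 18 and 24 cells. Most of their values lay at or near 0, so rho says little about levels in pairs that hold them. Among the widely detected receptors, rho was 0.0135 for Fgfr1 with Fgfr3, -0.0606 for Fgfr1 with Igf1r and 0.165 for Fgfr3 with Igf1r. The genes most like each widely detected receptor, by the same measure among 10098 genes, were Gpr89 (0.42) and Ugt2b34 (0.41) for Fgfr1, Prps1 (0.39) and Fbn2 (0.38) for Fgfr3, and Eif4g3 (0.43) and 4930417M19Rik (0.42) for Igf1r. These are the highest of 10098 values over 71 cells, and unrelated genes could reach such maxima, which was not tested. Ugt2b34 and 4930417M19Rik were also near the floor, at medians of 0.796 and 1.31 CPM.

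Of the ligands of these receptors, 9 of 20 with a row were tested, and 0 passed (limma adjusted p under 0.05), with 2 at an unadjusted p under 0.05 (4.95% of all genes) and 3 of 9 higher in both CD87 positive libraries (20.4% of all genes). Their median log2 difference was 0.03, against 0.01 over all genes. Igf2, a ligand of IGF1R and of the clearance receptor IGF2R, was at 12.92 and 10.80 TPM in CD87 negative cells, against 27.46 and 24.19 TPM in CD87 positive cells (log2 difference 1.06, limma adjusted p = 0.863), and was in 52 cells. Igf1 was at 0.84 and 0.88 against 3.43 and 8.05 TPM (1.77) and was in 11 cells. Both were higher in both CD87 positive libraries, as was the macrophage marker sum, whose part was not tested. The ephrin-A genes Efna4 and Efna2, ligands of EPHA2, had means of 11.7 and 8.94 TPM. Efna1 (1.65 TPM) and Efna3 (1.40 TPM) were lower. Hgf, the ligand of MET, was listed at 0 in all 4 libraries and detected in 0 of 71 cells.

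Adaptors and effectors were measured more widely. Of 18 with a row, 15 were tested and 0 passed, with 0 at an unadjusted limma p under 0.05, and 3 of the 15 were higher in both CD87 positive libraries, against 20.4% of all genes. The PI3K subunit gene Pik3r2 had a mean of 39.2 TPM, Grb2, the adaptor to RAS activators, 23.6 TPM, Shc1 23.3 TPM and Plcg1 17.6 TPM. Grb2 was detected in 68 and Shc1 in 66 of the 71 cells. The smallest p values belonged to the catalytic PI3K subunit Pik3ca (log2 difference 1.10) and the docking protein Gab1 (0.58) in the higher direction, and to Frs3 (-0.50) and Pik3r3 (-0.16) in the lower.

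Among attenuators and binding proteins, 17 of 21 were tested, 0 passed and 5 had an unadjusted limma p under 0.05, against 4.95% of all genes. Of the 17, 7 were higher and 4 lower in both CD87 positive libraries, against 20.4% and 14.5% of all genes, and their median log2 difference was 0.45, against 0.01 over all genes. Igfbp2, which binds insulin-like growth factors, was at 174 and 142 TPM in CD87 negative cells, against 87.8 and 108 TPM in CD87 positive cells (-0.69, limma adjusted p = 0.863). Igfbp6, which prefers IGF2, was at 13.73 and 18.74 against 5.05 TPM and a listed 0 (-2.79, adjusted p = 0.863). The ERK feedback inhibitor Spry4 was at 0.40 and 2.06 against 7.02 and 15.89 TPM (2.49, adjusted p = 0.824) and its relative Spred1 differed by 1.24. The phosphatase gene Ptpn1 (25.3 TPM), the ERBB inhibitor Errfi1 (19.9 TPM) and Spred2 (13.7 TPM) were the next most abundant after Igfbp2. Spry2, singled out after its values were seen, was listed at 0 in all 4 libraries but was detected in 71 of 71 cells (median 5.8 CPM). Of 7 receptor tyrosine kinase genes listed at 0 in all 4 libraries, Musk and Epha10 were in 66 cells each (medians 3.38 and 7.30 CPM). Styk1 was in 55 cells, and Flt3, Tie1, Epha3 and Ros1 were in 0 to 2. The sorted libraries and the cells thus disagreed for some genes. Whether a listed 0 missed a transcript, or low counts in cells were misassigned reads, was not tested.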

How the data were processed

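RNA of Oct4-GFP positive germ cells was measured in 4 sorted libraries (2 CD87 negative, 2 CD87 positive) and 71 KIT negative single cells. 5 other samples of the series were not analysed here. For the sorted libraries the authors deposited TPM values, made with Trim Galore and RSEM on mm9 per the submitters' processing notes. The single-cell table deposited by the authors holds expected counts for each gene, for which those notes name Trim Galore, Salmon and mm9. Tool versions and the annotation were not given in the sources used here. The count columns are headed P6 while the labels give postnatal day 5.5; cells were matched by number. The row LOC672857 held 23.9% to 31.2% of each library's TPM sum. In the count table, 22 rows whose names had become dates, at most 0.609% of a cell's counts, were left out, which leaves 27106 genes.

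The CD87 groups were fitted in limma (version 3.58.1, R 4.3.3) on log2(TPM + 1), with a trend in the variance model, among genes at 1 TPM or more in at least 2 libraries, two-sided, Benjamini-Hochberg threshold 0.05 over all genes tested. Since separate animals are not stated, its p-values reflect only how these 4 libraries vary, and that may be technical. Single cells gave CPM, shares with exact 95% intervals and limits for a count of 0 (3 counts), with no test. Reads carry no molecular identifiers. These intervals and limits cover the sampling of cells, taken as independent draws, and not any difference between animals. No cell was removed and no doublet call was made. Python 3.11.15 was used for the cells. Alternatives were the pseudocount, the filter, scaling, the replicate block, the variance trend, leaving out each library, thinning, the detection limit, deep cells and size factors.

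The members and lists were chosen with earlier results of these data known. Of 157 list entries, 153 matched a row by symbol, 2 by an older symbol and 2 had none. Named genes were all 9 receptors and, from each list of ligands, adaptors, attenuators and receptor tyrosine kinases, the 4 with the highest mean TPM, those past the threshold and the 2 with the smallest p in each direction, with the 2 genes most like each receptor in at least 36 cells. Besides the marker lists described with the results, Leydig markers summed to between 2.2 and 4.09 TPM and germ cell markers to between 490 and 595.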

Additional observations from a re-analysis of the deposited data

Results flagged for a closer look

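Among groups of 4 to 10 cells, 13 receptor and cluster groups had enough spread to look for a cell far from the rest, and 8 had one. Chance flags about 1 in 20 groups of normally spread values. That rate does not hold for CPM at or near 0 in most cells, where a single cell with reads is flagged by construction. The highest cell was found for each receptor separately. In cluster I it held 91.6 CPM for Fgfr1 (next highest 46.04) and 127 CPM for Epha2 (next 6.68). It held 81.9 CPM for Erbb3 (next 18.6) and 356 CPM for Met (next 0.348). Epha2 and Erbb3 had the same highest cell there, and Fgfr1 and Met each had another. In cluster IV it held 1723 CPM for Igf1r (next 433) and 38.96 CPM for Fgfr2 (next 0). It held 21.8 CPM for Erbb2 (next 1.75) and 0.874 CPM for Erbb3 (next 0). These cluster IV cells all differed.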

How the results depend on the processing

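In the CD87 comparison, 0 receptors passed under every alternative except one, and 4 passed without CD87 positive library 1, so that the count ran from 0 to 4 as each library was left out. Over all genes, 3 passed in the comparison as reported, 1 with a pseudocount of 0.1, 1 with no filter, 1 with values rescaled without LOC672857, 0 with no trend and 10 to 2988 with 1 library left out. With the replicate block, 130 genes and 0 receptors passed. The labels number the libraries group 1 and group 2 within each CD87 group. They do not say whether libraries of the same number share a sort or a batch. Over 12715 genes, library 1 minus library 2 in CD87 negative cells correlated at 0.068 with the same difference in CD87 positive cells. With 2 pairs, that value cannot decide whether the libraries are paired. Receptors whose groups did not overlap numbered 5 (34.8% of all genes), 4 when rescaled without LOC672857 (34.8%) and 6 to 8 with 1 library left out, where 59.9% to 84.0% of all genes did not overlap.

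The log2 difference turned sign for Fgfr1, Igf1r and Insr. With 1 library left out, that of Fgfr1 ran from -0.046 (no CD87 positive library 2) to 0.459, that of Igf1r from -0.193 (no CD87 negative library 2; -0.135 with no CD87 positive library 1) to 0.360, and that of Insr from -0.704 to 0.194 (no CD87 positive library 2). Igf1r was at -0.0249 when rescaled without LOC672857 and at -0.0517 after quantile normalization, and Insr at 0.116 after the latter. The cause was not tested. Insr fell below the filter, with no fit, when either library numbered 1 was left out. Of 97 alternative differences over the 9 receptors, 86 kept their direction and their side of the threshold.

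In the single cells, 3 receptors were in at least 80% of the cells, and 2 after thinning (Fgfr3 at 77.5%). At an expected count of at least 5, 1 was, with Fgfr1 at 77.5% and Fgfr3 at 78.9%, and the well expressed receptors then numbered 1, Igf1r, in place of 2. Pairs of a receptor and a cluster that differed numbered 6 under each of 3 alternatives. With 2 libraries a group and 6 to 32 cells a cluster, small differences were not detectable.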
